A study of Mus musculus with 14 samples.

Results

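The genes described are 34 of the 54532 in the deposited tables: Trp53, its 2 main inhibitors Mdm2 and Mdm4, and 31 well-known targets of p53. They were taken by gene symbol and not by a rule on their measured values, though with earlier results of these data known. Each symbol matched 1 Ensembl gene. The 14 RNA libraries come from tumours that grew after 4T1 cells, a mouse mammary carcinoma line labelled as triple-negative breast cancer, were placed under the skin of the mammary area of mice. Treatment by intraperitoneal injection started once tumours measured about 100 mm3 (day 9), was given 3 times at intervals of 6 days, and tissue was collected 3 days after the last injection. The 4 PBS libraries come from animals given buffer alone, the 5 CTX100 libraries from animals given cyclophosphamide at 100 mg/kg and the 5 CTX140 libraries from animals given 140 mg/kg, each in 100 μL PBS. The labels used here name no strain, sex, age or host genotype. They also do not tie the libraries to different animals, so the p-values rest on the spread among these libraries, which may be technical.

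Cyclophosphamide is a prodrug whose active form alkylates and crosslinks DNA. The transcription factor p53 is held at a low protein level by the ubiquitin ligase Mdm2 and is released when DNA is damaged, so its activity is set mainly by protein stability and not by the amount of its mRNA. It then switches on genes that stop the cell cycle, repair DNA, restrain growth signalling or start apoptosis, and Mdm2 itself, which closes the loop. 4T1 cells are generally described as lacking functional p53, while a tumour also holds cells of the host, and bulk RNA pools both. Many p53 targets also answer to other regulators, and a transcript level does not measure p53 protein or its binding.

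The p53 protein binds a pair of half-sites of 10 bases, each with an intact core of C, A or T, A or T, and G. RefSeq promoter windows (GRCm38.p6, 250 bases before to 50 after a gene's start) were present for 26 members and were searched on both strands for the p53 half-site, which reads the same on either strand. A half-site was found in 10 of the 26, against 9.55% of the 27025 genes whose windows were used. A pair, at most 13 bases apart with at most 2 mismatches outside the cores, was found in 3, Cdkn1a, Bax and Sesn1, against 2.47%. The 250 bases before the start are printed for the 2 of these that were called higher at CTX140, with the pair of fewest mismatches in capitals. They are Cdkn1a at chr17:29090729-29090978 (plus strand, pair without a mismatch and 12 bases apart) and Bax at chr7:45466899-45467148 (minus strand, 2 mismatches, 1 base apart). In Cdkn1a the 10 bases directly after the capitals have an intact core and differ from the half-site only at their first base. With the capital half-site just before them, they form another pair that meets the rule.
Cdkn1a: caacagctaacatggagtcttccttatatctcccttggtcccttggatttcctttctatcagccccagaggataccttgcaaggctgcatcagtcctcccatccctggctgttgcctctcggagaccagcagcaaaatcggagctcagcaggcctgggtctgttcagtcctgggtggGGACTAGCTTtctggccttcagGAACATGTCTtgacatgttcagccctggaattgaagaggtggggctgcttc
Bax: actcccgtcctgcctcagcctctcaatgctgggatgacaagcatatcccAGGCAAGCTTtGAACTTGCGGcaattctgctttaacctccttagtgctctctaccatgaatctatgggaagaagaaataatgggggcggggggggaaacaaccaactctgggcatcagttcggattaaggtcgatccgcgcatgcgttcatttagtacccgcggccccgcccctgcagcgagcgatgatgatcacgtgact
Sesn1, which was not called, holds a pair with 2 mismatches at chr10:41887253-41887275, and only that stretch is shown.
Sesn1: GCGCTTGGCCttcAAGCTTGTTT
A match is a string of letters and not a measured binding site. Fas, Sesn2, Phlda3, Eda2r and Psrc1, described next among the called genes, had no half-site in their windows, which says only that these letters are not in these bases.

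Libraries held 14423875 to 19282726 counts. Values per library are CPM, counts scaled to a common library size with TMM factors, listed in replicate order, and fold changes are those fitted by edgeR. All 9 carcinoma epithelium markers (Epcam, Krt8 and others) were read in every library, with a summed level of 1268 to 2261 CPM over all 14, and the groups overlapped. By gene, 5 of the 9 were called higher at CTX140 (11.1% of all genes tested) and none at CTX100 by edgeR (1.20% of all genes; 1 marker at an unadjusted p under 0.05, 1 by DESeq2, none by limma). Summed fibroblast markers (10 genes) went from 816 to 1369 CPM in PBS to 1399.5 to 2382 at CTX100 and 2430.4 to 6826 at CTX140, adipocyte markers (7 genes) from 7.30 to 55.2 to 49.9 to 175 and 112 to 591, and mast cell markers (6 genes) from 4.39 to 14.1 to 13.7 to 28.7 and 13.9 to 86.3. Called higher at CTX140 were 9 of 10 fibroblast, 6 of 6 tested adipocyte and 4 of 5 tested mast cell markers. At CTX100, 2 fibroblast markers were called higher, and no adipocyte or mast cell marker (4 of each at an unadjusted p under 0.05). In bulk tissue, fewer cells of a type and less RNA per cell cannot be told apart. The part of these markers in the changes of the p53 genes was not tested.

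In PBS tumours the members spanned nearly 4 orders of magnitude in length-scaled level. Bax, which encodes a pore-forming protein of the mitochondrial outer membrane, was the most abundant, at 67.6 ± 18.8 FPKM (SD, n = 4), followed by Phlda3 at 23.5 ± 3.79, Ei24 at 22.5 ± 3.23 and Ccng1 at 21.3 ± 3.95; the last 3 lay within each other's spread. Cdkn1a, Mdm2 and Plk2 were at 12.9, 12.6 and 12.3 FPKM, just above Trp53 at 9.93 ± 1.29. At the other end Perp was at 0.173 ± 0.0839 FPKM, Ddit4l at 0.0368 and Eda2r at 0.00972. Ddit4l was the 1 member that did not pass the filter on low counts, so 33 members were tested.

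**Figure D1:**
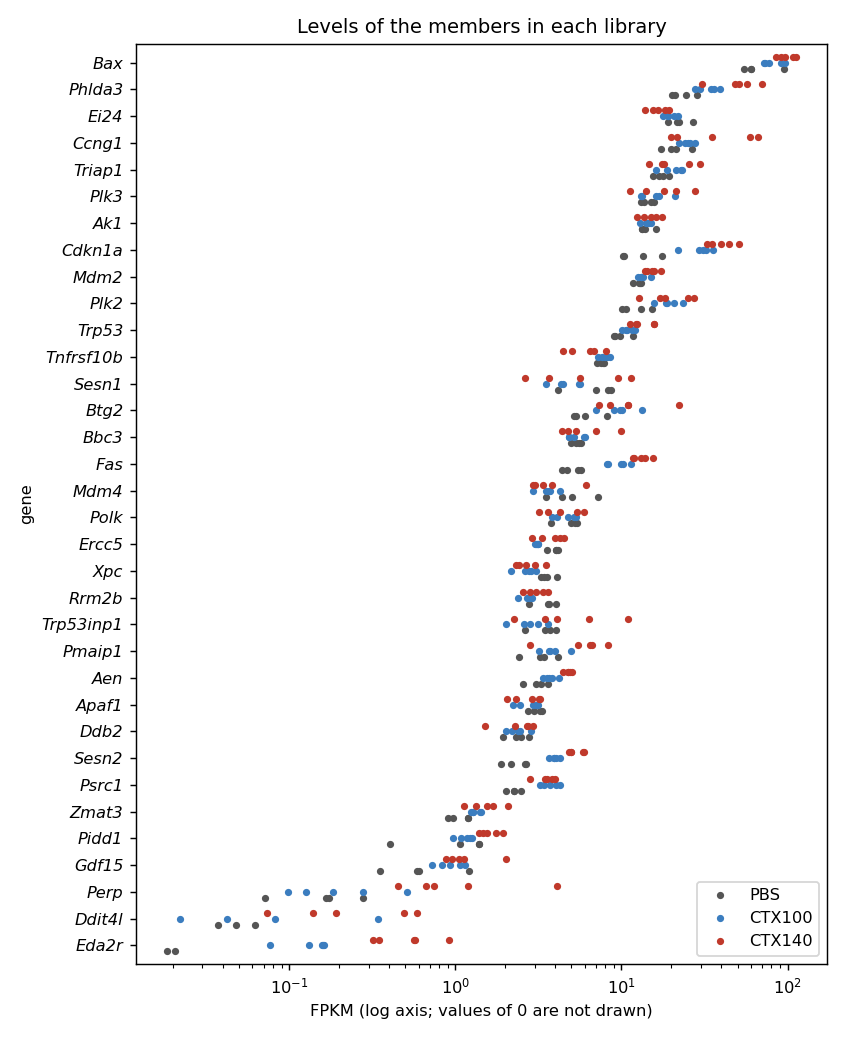
FPKM of the 34 members in each library (log axis, values of 0 not drawn; points are libraries, coloured by group), ordered by the PBS mean. Bax stood highest and Perp, Ddit4l and Eda2r lowest in PBS, and Cdkn1a is at higher values in both treated groups.

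Of the 33 tested members, 5 rose at CTX100 (1.60% of all genes were called in either direction), 15 rose at CTX140 and 1 fell at CTX140 (21.3% called in either direction). The 5 called higher at 100 mg/kg were Cdkn1a, Psrc1, Fas, Eda2r and Sesn2, against 1.20% of all 15360 genes tested called higher; no member was called lower by edgeR (0.397% of all genes; 3 members at an unadjusted p under 0.05, none by DESeq2 and none by limma). At 140 mg/kg the same 5 were called again with Trp53, Ccng1, Btg2, Plk2, Bax, Pmaip1, Perp, Aen, Zmat3 and Phlda3, against 11.1% of all genes called higher, and Ei24 was called lower, against 10.1%. The median log2 fold change of the tested members was 0.16 at CTX100 and 0.55 at CTX140, and that of all genes tested was -0.01 and 0.02. Both comparisons share the PBS libraries. At CTX100, 1439 of the 15360 genes tested were higher and 1309 lower at an unadjusted p under 0.05. All CTX140 libraries lay above all PBS libraries for 9 of the 33, against 7.34% of all genes, and all CTX100 libraries lay above PBS for 7, against 5.17%. In the other direction, 1 member (Ei24) lay below PBS in all CTX140 libraries, against 6.91% of all genes, and 2 (Xpc and Ercc5) in all CTX100 libraries, against 3.55%.

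The number of calls moved with the libraries and the fit. At CTX140 it was 8, all higher, when only the PBS and CTX140 libraries were fitted (Aen, Cdkn1a, Eda2r, Fas, Perp, Phlda3, Psrc1 and Sesn2), and 9 without PBS 4; at CTX100 it was 2 without PBS 3 and 3 without PBS 4.

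**Figure D2:**
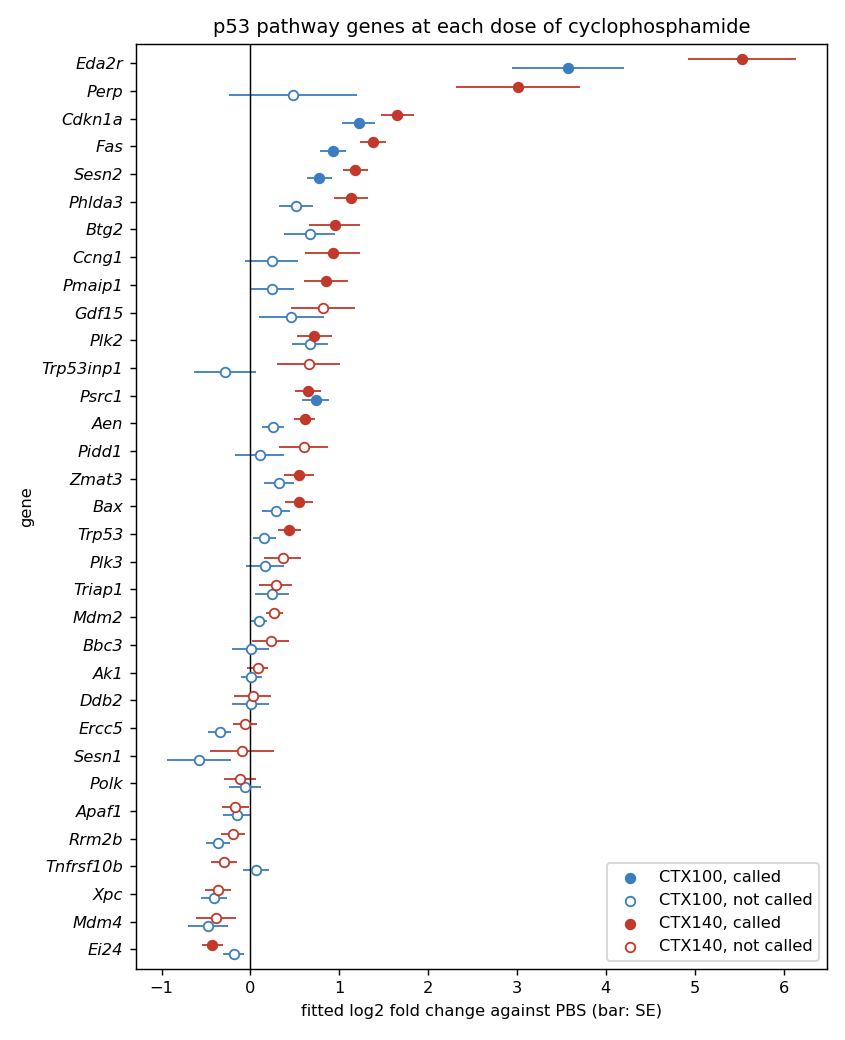
Fitted log2 fold change against PBS (bars, SE) of the 33 tested members at CTX100 (blue) and CTX140 (red), filled where called, ordered by the value at CTX140. Eda2r and Perp lie farthest right at CTX140, and Ei24 is the 1 member called lower.

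Trp53 mRNA was slightly higher at the higher dose. Trp53 (ENSMUSG00000059552, chromosome 11, 69580359 to 69591873, mm10) was read at 39.6, 48.0, 36.3 and 37.3 CPM in PBS, at 43.5, 47.2, 43.6, 49.5 and 40.6 in CTX100 and at 64.0, 49.1, 49.9, 45.8 and 63.6 in CTX140. The highest PBS library overlapped the lowest CTX140 libraries, and the log2 fold change was 0.16 ± 0.13 at CTX100 (SE; adjusted p = 0.562) and 0.44 ± 0.13 (SE; adjusted p = 0.0249) at CTX140. The CTX140 call was lost without PBS 1, 3 or 4 and without CTX140 1 or 5 (highest adjusted p = 0.0817), with only the 2 groups fitted (0.077) and with no filter on low counts (0.062).

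Mdm2, the ubiquitin ligase that is both inhibitor and target of p53, differed little between groups. It was read at 65.3, 66.6, 59.5 and 66.6 CPM in PBS, at 68.6, 67.0, 64.6, 67.4 and 76.5 in CTX100 and at 73.0, 87.9, 77.4, 79.8 and 70.6 in CTX140. Every CTX140 library lay above every PBS library, by a log2 fold change of 0.27 ± 0.09 (SE; adjusted p = 0.0529), just outside the threshold. It passed with DESeq2 (adjusted p = 0.0299), with RLE factors (0.0492), with the stricter filter (0.0444) and without CTX140 5 (0.0390). Mdm4, a relative of Mdm2 that blocks p53's activation domain, was at 65.3, 51.8, 74.3 and 109 CPM in PBS, at 63.4, 55.1, 43.9, 52.6 and 54.5 in CTX100 and at 91.7, 43.1, 56.6, 49.9 and 44.5 in CTX140, with log2 fold changes of -0.48 (adjusted p = 0.28) and -0.39 (0.226). CTX140 1 stood above the other CTX140 libraries, and without it the value at CTX140 was -0.63 and passed (adjusted p = 0.0263).

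Among genes of cell cycle arrest, Cdkn1a rose most. Cdkn1a encodes p21, the inhibitor of cyclin-dependent kinases that carries much of the arrest by p53 (ENSMUSG00000023067, chromosome 17, 29090976 to 29100727, mm10). It was read at 62.4, 48.3, 36.8 and 36.6 CPM in PBS, at 111, 115, 105, 78.0 and 126 in CTX100 and at 143, 181, 157, 117 and 124 in CTX140. The lowest CTX100 library, at 78.0 CPM, lay above the highest PBS library, at 62.4 CPM. The group means were 46.0 ± 12.2 CPM (SD, n = 4), 107 ± 17.9 CPM (n = 5) and 145 ± 25.8 CPM (n = 5), log2 fold changes of 1.22 ± 0.18 (SE; adjusted p = 0.012) and 1.65 ± 0.19 (SE; adjusted p = 6.79e-05). Both calls held without any 1 library (highest adjusted p = 0.0499 and 0.000632).

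Psrc1, which encodes a microtubule-binding protein of the mitotic spindle, was called higher at both doses. It was at 7.59, 8.40, 7.62 and 6.81 CPM in PBS, at 13.6, 10.9, 12.6, 14.5 and 11.6 in CTX100 and at 13.6, 12.8, 12.0, 11.7 and 9.53 in CTX140. Neither treated group overlapped PBS, and the treated groups overlapped each other. The log2 fold change was 0.73 ± 0.15 (SE; adjusted p = 0.0268) at CTX100 and 0.65 ± 0.15 (SE; adjusted p = 0.00691) at CTX140. The CTX100 call was lost without PBS 3 or 4 or without CTX100 1, 3, 4 or 5 (highest adjusted p = 0.0945) and with no filter on low counts (0.0536).

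Plk2, a polo-like kinase gene induced by stress, differed from PBS by a like amount at both doses and was called at CTX140. It was at 45.1, 68.7, 58.9 and 48.1 CPM in PBS, at 84.6, 84.4, 70.5, 94.2 and 105 in CTX100 and at 77.9, 57.2, 81.7, 114 and 123 in CTX140. All CTX100 libraries lay above PBS, while CTX140 2 fell within the PBS range. Its log2 fold changes were 0.67 ± 0.20 (SE; adjusted p = 0.094) and 0.72 ± 0.20 (SE; adjusted p = 0.019); the call at CTX140 was lost without PBS 1 or PBS 4 (highest adjusted p = 0.0669), and at CTX100 Plk2 was called by DESeq2, with only the 2 groups fitted and without PBS 2. Its relative Plk3 was not called at either dose (log2 fold changes 0.16 and 0.36, adjusted p = 0.733 and 0.238).

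Ccng1, which encodes cyclin G1 and is among the classic p53 targets, and the antiproliferative gene Btg2 were called at CTX140 and not at CTX100, with wide spreads there. Ccng1 was at 75.3, 61.3, 93.6 and 70.0 CPM in PBS, at 85.2, 89.4, 98.3, 78.3 and 90.8 in CTX100 and at 213, 231, 123, 69.7 and 76.0 in CTX140. CTX140 1 and 2 were far above the PBS range and CTX140 4 and 5 inside it. Its log2 fold change at CTX140 was 0.92 ± 0.31 (SE; adjusted p = 0.0444), and the call was lost without any 1 of the PBS libraries or of CTX140 1, 2 and 3 (highest adjusted p = 0.116), with limma on log2(FPKM + 1) (0.0887) or log2(FPKM + 0.1) (0.0830) and with no filter on low counts (0.137). Btg2 was at 22.6, 14.3, 14.6 and 16.8 CPM in PBS, at 27.6, 25.0, 27.1, 19.4 and 36.7 in CTX100 and at 62.0, 29.7, 30.1, 20.2 and 23.3 in CTX140. CTX140 1 was the highest by a wide margin, and the log2 fold change of 0.95 ± 0.29 (SE; adjusted p = 0.0288) was 0.60 without it (adjusted p = 0.0452); the call was lost without PBS 2, 3 or 4 (highest adjusted p = 0.0874) and with no filter on low counts (0.0692).

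Of the 3 death receptor genes, 2 rose at both doses. Fas, the receptor of Fas ligand (ENSMUSG00000024778, chromosome 19, 34290659 to 34327770, mm10), was read at 7.90, 8.54, 10.2 and 9.94 CPM in PBS, at 20.6, 14.9, 18.4, 15.1 and 17.9 in CTX100 and at 23.8, 24.8, 27.97, 21.2 and 21.4 in CTX140. The 3 groups did not overlap. Its log2 fold change was 0.93 ± 0.14 (SE; adjusted p = 0.0134) at CTX100 and 1.38 ± 0.14 (SE; adjusted p = 4.11e-05) at CTX140, and both calls held without any 1 library (highest adjusted p = 0.0472 and 0.000375). Eda2r, the receptor of ectodysplasin A2 (ENSMUSG00000034457, chromosome X, 97333840 to 97377216, mm10), had 4 counts over the 4 PBS libraries, 70 over the 5 CTX100 libraries and 266 over the 5 CTX140 libraries. Its values were 0.121, 0, 0 and 0.110 CPM in PBS, at 0.965, 0.777, 0.952, 0.454 and 0.928 in CTX100 and at 3.42, 5.35, 3.31, 2.05 and 1.87 in CTX140. No groups overlapped, and the log2 fold changes were 3.57 ± 0.63 (SE; adjusted p = 0.0172) and 5.53 ± 0.61 (SE; adjusted p = 6.41e-05); with so few counts in PBS their size depends on the fit, and on log2(FPKM + 1) the CTX100 value was 0.17 and not called (adjusted p = 0.351). The CTX100 call was also lost without PBS 3 (adjusted p = 0.0651). Tnfrsf10b, the receptor of TRAIL, was not called (log2 fold changes 0.06 and -0.30, adjusted p = 0.863 and 0.147), but without CTX140 4 it was called lower at CTX140. CTX140 1 and 2, at 24.6 and 27.2 CPM, were the lowest of the 14 libraries for Tnfrsf10b.

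**Figure D3:**
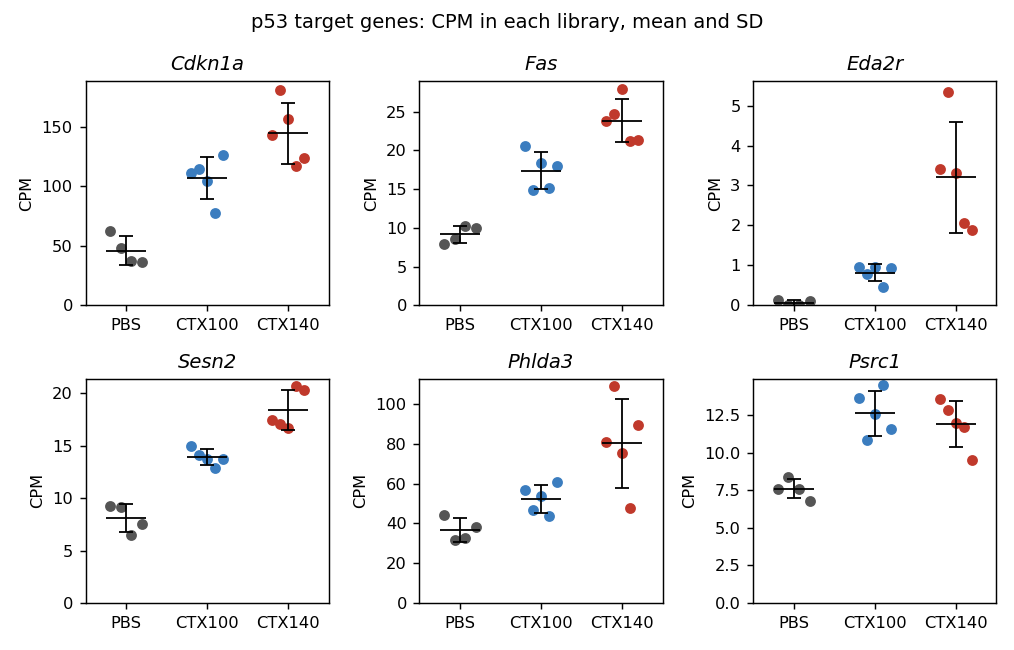
CPM of Cdkn1a, Fas, Eda2r, Sesn2, Phlda3 and Psrc1 in each library (points) with the mean and SD of each group (black), axes from 0. Fas, Eda2r and Sesn2 separate all 3 groups, and Psrc1 is as high at CTX100 as at CTX140.

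Of the 12 members of the mitochondrial and other death pathways, none was called at CTX100 by edgeR (1 at an unadjusted p under 0.05, none by DESeq2 or limma), and 6 were called higher and 1 lower at CTX140, beside 11.1% and 10.1% of all genes, so that the 1 lower is near the share of all genes. Phlda3, whose product competes with the kinase Akt for membrane lipids, had the smallest adjusted p of the 12 at CTX140. It was at 44.5, 31.6, 32.5 and 38.4 CPM in PBS, at 56.6, 46.7, 54.0, 43.8 and 61.1 in CTX100 and at 80.8, 109, 75.3, 47.6 and 89.4 in CTX140. All CTX140 libraries lay above PBS, CTX140 4 by the least, and the log2 fold change was 1.13 ± 0.19 (SE; adjusted p = 0.00102). Aen, an exonuclease of apoptotic cells, had the narrowest range of any member within CTX140. It was at 20.97, 19.1, 14.7 and 18.0 CPM in PBS, at 19.5, 24.7, 20.7, 22.3 and 21.2 in CTX100 and at 27.9, 28.2, 25.6, 27.8 and 29.3 in CTX140. The CTX140 libraries lay above all others, with a log2 fold change against PBS of 0.61 ± 0.12 (SE; adjusted p = 0.00304). The calls of Phlda3 and Aen held without any 1 library (highest adjusted p = 0.00639 and 0.0133).

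Bax was at 94.7, 151, 94.3 and 87.4 CPM in PBS, at 122, 115, 116, 145 and 152 in CTX100 and at 136, 177, 153, 145 and 170.4 in CTX140. PBS 2 stood inside the treated range and the other 3 PBS libraries below it. The log2 fold change at CTX140 was 0.55 ± 0.16 (SE; adjusted p = 0.0221), lost without PBS 1, 3 or 4 (highest adjusted p = 0.0774). Without PBS 2, Bax was also called higher at CTX100. Of the BH3-only genes, whose products set off Bax, Pmaip1 (Noxa) was at 8.62, 6.42, 10.9 and 9.06 CPM in PBS, at 9.89, 9.74, 10.6, 8.57 and 13.1 in CTX100 and at 22.3, 17.5, 17.1, 7.51 and 14.5 in CTX140. CTX140 4 lay inside the PBS range and the other 4 above it. Its log2 fold change was 0.85 ± 0.25 (SE; adjusted p = 0.0236), lost without PBS 1, 2 or 4 or CTX140 1 (highest adjusted p = 0.0604). Bbc3 (Puma), the other BH3-only gene, differed by 0.00 and 0.23 on the log2 scale (adjusted p = 0.997 and 0.461).

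Perp, a membrane protein gene that also belongs to the desmosomes of skin and other epithelia, went from 22 counts over the PBS libraries to 235 over the CTX140 libraries, 135 of them in CTX140 1. Its values were 0.542, 0.342, 0.140 and 0.329 CPM in PBS, at 0.543, 0.358, 1.00, 0.195 and 0.247 in CTX100 and at 8.09, 2.32, 1.29, 0.888 and 1.45 in CTX140. All CTX140 libraries lay above PBS, and CTX140 1 far above the rest. The log2 fold change of 3.01 ± 0.70 (SE; adjusted p = 0.00725) was 2.10 without CTX140 1 (adjusted p = 0.0126). Summed keratinocyte markers (6 genes, 2 of them at 0 throughout PBS) were also highest in CTX140 1, at 22.2 CPM against 8.59 to 12.2 in the other CTX140 libraries and 3.51 to 6.28 in PBS, and their part in the Perp values was not tested.

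Zmat3, an RNA-binding zinc finger gene, was at 13.7, 10.3, 13.6 and 11.1 CPM in PBS, at 14.7, 16.4, 16.3, 14.7 and 14.3 in CTX100 and at 24.1, 19.2, 17.7, 15.3 and 12.8 in CTX140. Its log2 fold change at CTX140 was 0.55 ± 0.17 (SE; adjusted p = 0.0294), lost without PBS 2 or 4 or CTX140 1, 2 or 3 (highest adjusted p = 0.0956), with limma on log2(FPKM + 1) (0.0603) or log2(FPKM + 0.1) (0.0604) and with no filter on low counts (0.0694). Ei24, an endoplasmic reticulum protein gene with a role in autophagy, was the 1 member called lower. It was at 109, 93.7, 131 and 106 CPM in PBS, at 92.9, 107, 93.7, 102 and 86.2 in CTX100 and at 89.99, 93.4, 80.7, 68.2 and 74.9 in CTX140. The highest CTX140 library fell just under the lowest PBS library, with a log2 fold change of -0.43 ± 0.12 (SE; adjusted p = 0.0185), lost without PBS 3 (adjusted p = 0.07). The apoptosome gene Apaf1 (log2 fold change at CTX140 -0.17), the caspase-2 adaptor gene Pidd1 (0.60), the apoptosis inhibitor Triap1 (0.28) and the nuclear stress protein gene Trp53inp1 (0.66) were not called, with adjusted p of 0.448, 0.13, 0.295 and 0.199.

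None of the 5 DNA repair members was called at either dose by edgeR, DESeq2 or limma, where edgeR called 1.60% of all genes at CTX100 and 21.3% at CTX140. Xpc and Ddb2 encode sensors of nucleotide excision repair, Ercc5 its 3′ nuclease, Polk a polymerase that copies past damaged bases, and Rrm2b a subunit of ribonucleotide reductase. At CTX100, 3 were lower than PBS at an unadjusted p under 0.05, as were 1309 of the 15360 genes tested. The 3 were Xpc at -0.41 ± 0.15, Ercc5 at -0.35 ± 0.13 and Rrm2b at -0.37 ± 0.13 (log2 fold change, SE; adjusted p = 0.156, 0.18 and 0.16). Ercc5 was at 20.9, 23.8, 24.3 and 23.9 CPM in PBS, at 18.0, 18.5, 18.6, 17.8 and 18.2 in CTX100 and at 26.6, 16.9, 19.4, 23.4 and 24.9 in CTX140. Its 5 CTX100 libraries were tightly grouped below all PBS libraries, while the CTX140 libraries spread on both sides of PBS. Xpc likewise had all CTX100 libraries below PBS, and at CTX140 its log2 fold change was -0.37 ± 0.15 (SE; adjusted p = 0.0875). Without CTX140 4, Xpc was called lower at CTX140. Polk differed by -0.06 ± 0.18 and -0.11 ± 0.18 (adjusted p = 0.901 and 0.686). Ddb2 differed by 0.00 ± 0.21 and 0.03 ± 0.21 (adjusted p = 0.999 and 0.944); its exons share 652 bases with the opposite-strand gene Acp2, which had 11221 counts in all against 1521 for Ddb2, so their reads may not be told apart.

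The 2 sestrin genes, whose products restrain the growth kinase mTORC1, differed in their calls: Sesn2 rose at both doses and Sesn1 was called at neither. Sesn2 was at 9.28, 9.15, 6.498 and 7.58 CPM in PBS, at 15.02, 14.2, 13.8, 12.9 and 13.7 in CTX100 and at 17.4, 17.1, 16.7, 20.7 and 20.3 in CTX140. The 3 groups did not overlap, and the log2 fold changes were 0.78 ± 0.14 (SE; adjusted p = 0.0183) and 1.18 ± 0.14 (SE; adjusted p = 0.000105). The CTX100 call was lost without PBS 3 or PBS 4 (highest adjusted p = 0.0732). Sesn1 was at 34.7, 16.6, 32.8 and 28.2 CPM in PBS, at 22.3, 17.9, 22.6, 14.2 and 17.3 in CTX100 and at 45.9, 38.0, 22.2, 14.8 and 10.4 in CTX140. Its CTX140 libraries reached from under the lowest PBS library to above the highest, with log2 fold changes of -0.57 ± 0.36 and -0.10 ± 0.36 (adjusted p = 0.428 and 0.872). Gdf15, a secreted stress hormone gene, was at 1.28 ± 0.683 CPM in PBS (SD, n = 4) and 2.24 ± 0.857 CPM at CTX140 (n = 5), and the fitted log2 difference was 0.82 ± 0.36 (SE; adjusted p = 0.119). Without PBS 2, Gdf15 was called higher at CTX140. The adenylate kinase gene Ak1 differed by 0.01 ± 0.12 and 0.08 ± 0.12 (adjusted p = 0.975 and 0.651). Ddit4l, an inhibitor of mTOR signalling, was read with 7 counts over the PBS libraries, 27 at CTX100, 20 of them in CTX100 3, and 72 at CTX140, 29 and 24 of them in CTX140 1 and 2. Its CTX140 libraries all lay above PBS, the lowest at 0.214 CPM against 0.181 for the highest PBS library. DESeq2, run without the filter on low counts, called Ddit4l higher at CTX140.

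The comparison of the 2 doses asks which members differed between 140 and 100 mg/kg. Eda2r was the 1 member called, higher at CTX140 by 1.96 ± 0.41 (SE; adjusted p = 0.0347) on the log2 scale, against 0.775% of all genes called higher (1.25% in either direction). None was called lower by edgeR (0.475% of all genes; 2 members at an unadjusted p under 0.05; none by DESeq2 or limma). Of the members, 28 of 33 log2 fold changes were above 0, and of all genes tested 8202 of 15360. The call of Eda2r was lost without any 1 of CTX100 1 to 4 or CTX140 1 to 3 (highest adjusted p = 0.104). All CTX140 libraries lay above all CTX100 libraries for 5 members, Fas, Eda2r, Pidd1, Aen and Sesn2, against 2.33% of all genes, and below them for none, against 3.71%. Fas was higher by 0.46 ± 0.13 (SE; adjusted p = 0.0732), Phlda3 by 0.62 ± 0.18 (SE; adjusted p = 0.0716), Sesn2 by 0.41 ± 0.13 (SE; adjusted p = 0.0897) and Aen by 0.35 ± 0.11 (SE; adjusted p = 0.0955), values that missed the threshold. DESeq2 called these 4 higher with Eda2r, Perp and Trp53inp1, where it called 797 of the 15360 genes tested higher. The difference in Cdkn1a was 0.44 ± 0.17 (SE; adjusted p = 0.142), in Mdm2 0.18 ± 0.09 (SE; adjusted p = 0.259) and in Psrc1 -0.08 ± 0.14 (SE; adjusted p = 0.771).

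The members also differed in how far the CTX140 libraries lay from each other. The highest library exceeded the lowest more than 2-fold for 15 of the 34 members in CTX140, for 5 in PBS and for 2 in CTX100, where 2 and 1 further members had a library at 0. Aen (1.15-fold), Sesn2 (1.24-fold), Mdm2 (1.25-fold), Bax (1.30-fold) and Fas (1.32-fold) were the most even, and Perp (9.11-fold), Ddit4l (8.11-fold), Trp53inp1 (4.94-fold), Sesn1 (4.42-fold) and Ccng1 (3.31-fold) the least. The highest CTX140 value was in CTX140 1 for 13 members and in CTX140 2 for 11. These counts were not made over all genes, so they do not show a spread particular to the members. Whole libraries differed too. Over the genes tested, the chi-square per degree of freedom between 2 libraries of a group was 24.4 to 107 in CTX140. It was 13.5 to 45.0 in CTX100 and 33.6 to 72.3 in PBS. Trp53inp1 was at 22.5, 17.1, 26.1 and 24.1 CPM in PBS, at 23.5, 18.3, 20.3, 16.9 and 13.1 in CTX100 and at 72.2, 41.3, 26.5, 14.6 and 22.5 in CTX140. Its 2 highest libraries of all 14 were CTX140 1 and 2, as for Ccng1 and Sesn1, and CTX140 4 lay under every PBS library.

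Marker levels were uneven over the same libraries. Summed adipocyte markers were at 591, 382, 245, 122 and 112 CPM in CTX140 1 to 5, endothelial markers (6 genes) at 244, 165, 129, 78.2 and 62.8 CPM, T cell markers (8 genes) at 644, 196, 99.5, 73.7 and 62.4 CPM and fibroblast markers at 3131, 6826, 3739.7, 4015 and 2430.4 CPM. Of these lists, all but the fibroblast markers were highest in CTX140 1, and the fibroblast markers in CTX140 2. Carcinoma epithelium markers, at 1954, 1268, 1744, 1819 and 1713 CPM, were lowest in CTX140 2. Neutrophil markers went the other way, at 651, 834, 1478, 2077 and 1760 CPM, lowest in CTX140 1. Macrophage markers, at 2072, 4216, 1677, 846 and 948 CPM, were highest in CTX140 2, as were natural killer cell markers. Mast cell and keratinocyte markers were highest in CTX140 1. The part of these markers in the uneven members was not tested.

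**Figure D4:**
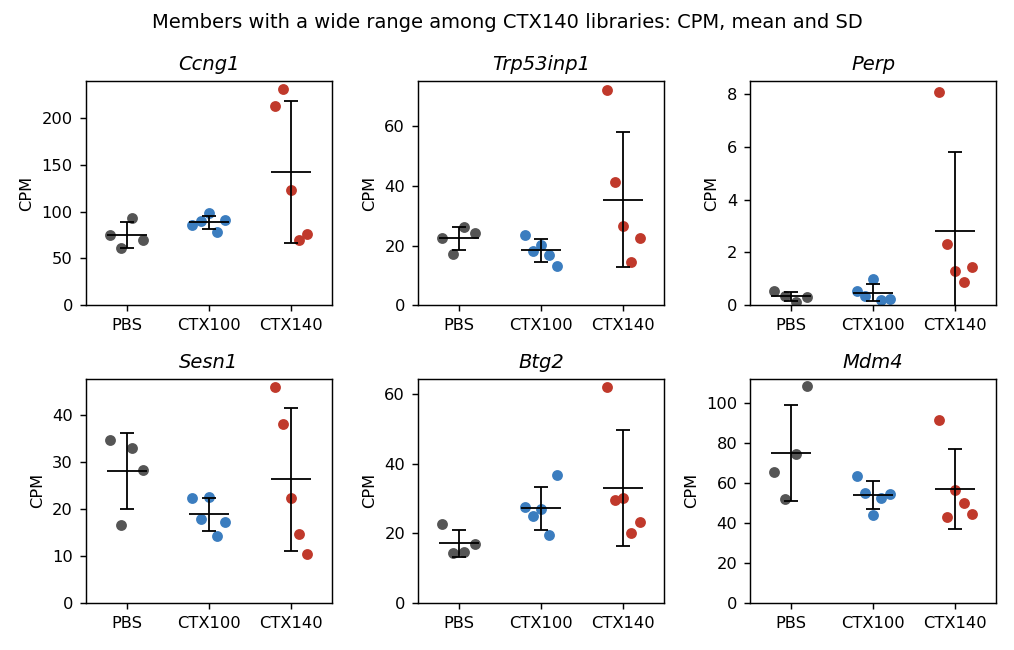
CPM of 6 members with a wide range among the CTX140 libraries, chosen after their values were seen (points, libraries; black, mean and SD; axes from 0, where the SD bar of Perp at CTX140 is cut off). For Ccng1, Trp53inp1 and Sesn1, 2 CTX140 libraries stand above the others, and for Perp, Btg2 and Mdm4 a single one does.

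**Figure D5:**
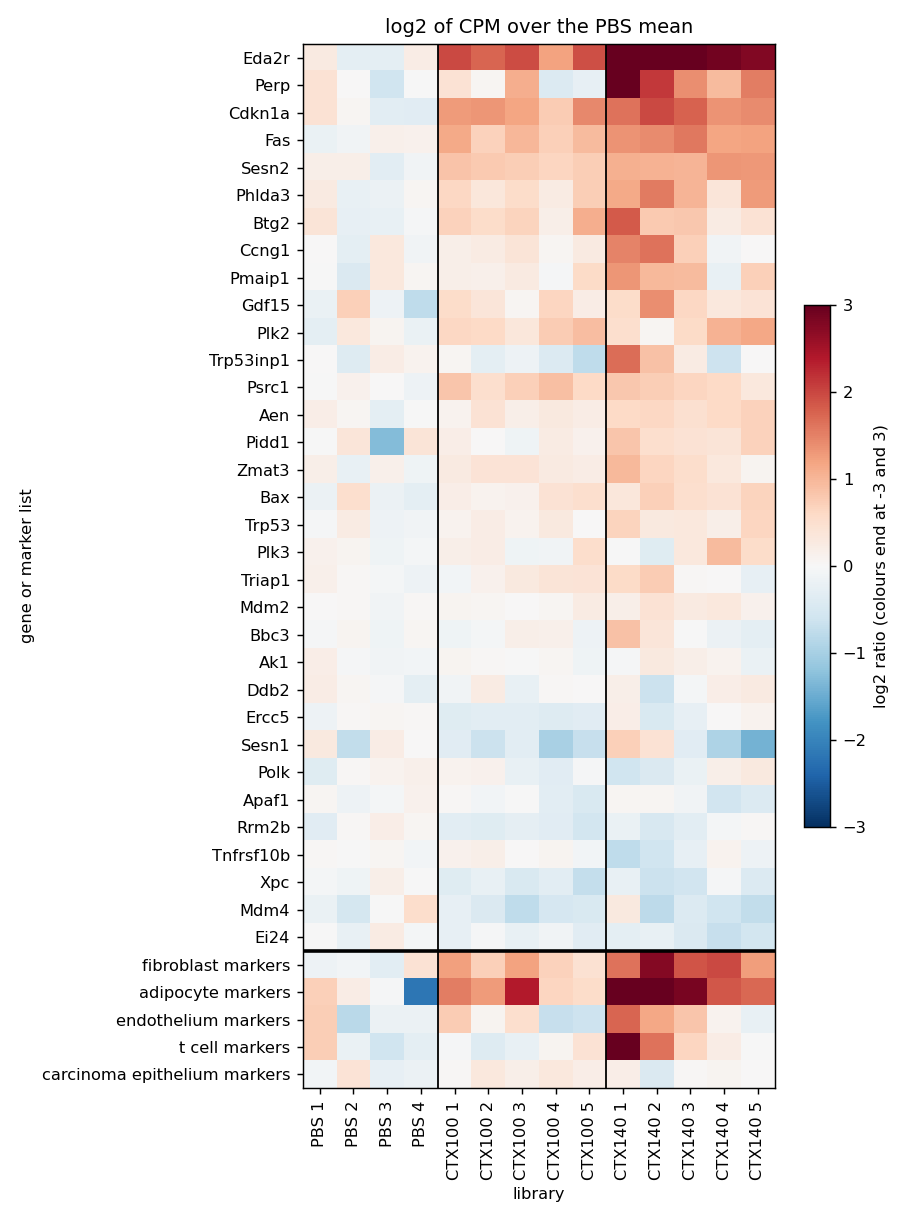
Log2 of each library's CPM over the PBS mean (0.25 CPM added to both; colours end at -3 and 3) for the 33 tested members, ordered by the fold change at CTX140, and for 5 summed marker lists (under the line). The upper rows from Cdkn1a to Phlda3 are red across CTX140, while Ccng1, Trp53inp1 and Sesn1 are red mainly in CTX140 1 and 2.

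Other genes of the pathway were taken from lists fixed by name. Of 28 further p53 targets, 26 were tested. None was called at CTX100 by edgeR (5 higher and 3 lower at an unadjusted p under 0.05; 1 and 1 by DESeq2, none by limma), and 6 were called higher and 2 lower at CTX140, where 11.1% and 10.1% of all genes were, with a median log2 fold change of 0.14 (0.02 over all genes). The detoxifying enzyme gene Ephx1 rose by 1.63 ± 0.36 (SE; adjusted p = 0.00594) and the reductase gene Dcxr by 1.10 ± 0.22 (SE; adjusted p = 0.00296), while Trp53i11 fell, with a log2 fold change of -1.64 ± 0.27 (SE; adjusted p = 0.00106). Trp53i11 was at 297 ± 139 CPM in PBS (SD, n = 4) and 95.1 ± 9.19 CPM at CTX140 (n = 5).

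Among 20 tested upstream regulators and partners of p53, none was called at CTX100 by edgeR (3 higher and 1 lower at an unadjusted p under 0.05; none by DESeq2 or limma), and 2 were called higher and 2 lower at CTX140, shares close to the 11.1% and 10.1% of all genes. Daxx, a histone chaperone gene, rose by 0.92 ± 0.17 (SE; adjusted p = 0.00208) and Ppp1r13b, which encodes the p53-binding protein ASPP1, by 0.49 ± 0.10 (SE; adjusted p = 0.00383); Trp53bp1, a scaffold of double-strand break repair, fell, with a log2 fold change of -0.42 ± 0.12 (SE; adjusted p = 0.0229).

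The 20 cell cycle genes that p21 is known to repress were higher or uncalled at CTX100, where Cdkn1a was higher. By edgeR 5 were called higher there and none lower, against 1.20% and 0.397% of all genes, with a median log2 fold change of 0.54. DESeq2 called 13 higher (536 of the 15360 genes tested) and limma 4 (107 of them). At an unadjusted p under 0.05, 17 were higher (1439 of all genes tested). All CTX100 libraries lay above PBS for 14 (5.17% of all genes), and none was lower by any of these. Ccnb2, the cyclin B2 gene, rose at CTX100 by 0.59 ± 0.12 (SE; adjusted p = 0.0246), and the mitotic checkpoint gene Bub1b by 0.64 ± 0.13 (SE; adjusted p = 0.0268). At CTX140, 1 was higher and 1 lower, each under the share of all genes (11.1% and 10.1%), the transcription factor gene Mybl2 at 0.59 ± 0.20 (SE; adjusted p = 0.0458) and the proliferation marker gene Mki67 at -0.45 ± 0.15 (SE; adjusted p = 0.0443), with a median of 0.16. Between the doses all 20 log2 fold changes were below 0 (7158 of the 15360 over all genes tested), with a median of -0.35. Of the 20, 2 were called lower at CTX140 (0.475% of all genes; 6 by DESeq2, against 420 of all genes tested, 2 by limma): Cenpf, a kinetochore gene, at -0.67 ± 0.13 (SE; adjusted p = 0.0284) and Bub1b at -0.59 ± 0.12 (SE; adjusted p = 0.0358). Each of the 3 comparisons shares a group with the other 2, and over all genes 17 were called at CTX100 without PBS 3 and none between the doses without CTX100 2 (2659 at an unadjusted p under 0.05); the counts of these lists were not recomputed without them.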

How the data were processed

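The deposited count table holds raw read counts per Ensembl gene, which the authors did not normalise. The deposited FPKM were made by the authors from these counts: each value equals the count over the listed gene length and 1 constant per library. The genome build is mm10 and DESeq2 was among the tools, per the submitters' processing notes. Aligner, counter and strand setting: not given in the sources used here. Rows of the 2 tables were joined by gene identifier. Coordinates are those of the deposited table (mm10); gene length (other) was used as deposited.

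Counts were tested in R 4.3.3 by edgeR 4.0.16 with TMM factors, filterByExpr by group (15360 genes), robust quasi-likelihood fit of all 14 libraries with no covariate, two-sided, p-values adjusted by Benjamini-Hochberg over the whole table, called at an adjusted p under 0.05. DESeq2 1.42.0 and limma 3.58.1 on log2(FPKM + 1) were among the alternatives. The fit was tested on counts simulated from the model of counts that edgeR assumes. Such counts do not hold differences between whole libraries of a group, so the fit was not tested against these. The labels give no batch, and no library was left out. Members, lists and alternatives were chosen with earlier results of these data known. Named in full were Trp53, Mdm2, Mdm4, Cdkn1a and every member called in a contrast, and up to 3 called genes of smallest p per pathway list, of which a selection is printed; members given in full beyond these were chosen after their values were seen. Marker lists of neutrophils, macrophages, natural killer cells, skeletal muscle and red blood cells were also read; in summed CPM their groups at CTX140 and PBS overlapped, except for natural killer cells (19.9 to 27.9 in PBS, 29.2 to 52.2 at CTX140). At CTX100, red blood cell markers lay below PBS (3.38 to 36.6 against 68.3 to 171) and the other 4 overlapped it.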

Additional observations from a re-analysis of the deposited data

Results flagged for a closer look

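For 7 of 102 sets of values (34 members in 3 groups), the highest or lowest library stood apart from the nearest other by more of the group's range than Dixon's 95% critical value; chance alone does this for about 1 in 20. In CTX140 1, Mdm4 was at 91.7 CPM (next 56.6), Btg2 at 62.0 CPM (next 30.1) and Perp at 8.09 CPM (next 2.32), each the highest of its group. In CTX140 2, Gdf15 was the highest at 3.74 CPM (next 2.09). In PBS 2, Bax was the highest at 151 CPM (next 94.7). In PBS 1, Ercc5 was the lowest at 20.9 CPM (next 23.8). In CTX100 3, Ddit4l was the highest at 1.00 CPM (next 0.241).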

How the results depend on the processing

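Members called at CTX100, 5 with all libraries, were 4 to 6 under the other tools, scalings and filters and 2 to 7 without 1 library. At CTX140, 16 became 12 to 18, but 8 with only the 2 groups fitted, and 9 to 18 without 1 library. Between doses, 1 became 7 with DESeq2, 2 with no filter on low counts and 0 to 5 without 1 library (where 0, 10 to 13 members had an unadjusted p under 0.05). Over all genes, 245 calls at CTX100 became 857 with DESeq2, 148 with limma on log2(FPKM + 1), 529 with 2 groups fitted and 17 (without PBS 3), 28 (without PBS 4) and 50 to 97 (without any 1 CTX100 library) to 686 (without PBS 2). At CTX140, 3268 became 1878 with 2 groups fitted and 1975 (without PBS 3) or 1992 (without PBS 4) to 3894 without 1 library. Between doses, 192 became 1285 with DESeq2 and 0 (without CTX100 2, 3 or 4, or CTX140 3; 2659 to 3089 genes at an unadjusted p under 0.05) to 1007 (without CTX140 5). The 1285 are not limited to the 15360 genes tested by edgeR, among which DESeq2 called 797 higher and 420 lower. The difference of Mdm4 between doses changed sign without CTX140 1 (-0.15 to 0.17 without 1 library; 0.08 with all). None of the 22 called member values changed sign in any alternative. Correlations of same-numbered libraries were mixed (-0.19 to 0.43; over 0.1 in 1 of 4, 2 of 4 and 3 of 5 pairs), so the numbers were not taken to pair the samples; with the replicate block 5 and 14 members were called at the 2 doses and 2 between doses, where 293 genes were called, and Trp53 and Ccng1 lost their calls at CTX140 (adjusted p = 0.0539 and 0.0565). Of the same-numbered pairs the own number correlated best in 1 of 4, 1 of 4 and 2 of 5. Depth limits Eda2r, Perp, Gdf15 and Ddit4l, at or under a few CPM; 3 counts equal 0.15 to 0.21 CPM.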
